A study of Mus musculus with 6 samples.

Results

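The genes described here supply translation with charged tRNAs and amino acids. They are 40 of the 54146 genes counted: 20 cytosolic aminoacyl-tRNA synthetase genes, 12 enzymes of amino acid and folate metabolism, 7 amino acid transporters and Eif4ebp1. They were chosen as a list of gene symbols by function, without a threshold on any measured value, but with earlier results of these data known. All 40 had enough reads to be tested. The cells were 4T1, an established line of mouse mammary carcinoma (BALB/c strain) that is used as a model of metastatic breast cancer. Wild-type (WT) cells were compared with 2 knockout clones, both labelled Mki67-/-, that is, with a knockout of the gene for Ki-67, a marker of proliferation. There were 2 libraries in each of the 3 groups, made from total RNA depleted of ribosomal RNA, and all cells were grown in high-glucose DMEM with serum. Each knockout line is 1 clone, so differences between clones and differences due to the genotype cannot be told apart within a single clone, and both comparisons with WT use the same WT libraries. Whether libraries of 1 group were separate cultures is not stated in the labels. The p-values therefore measure only how far these libraries spread, and that spread may be technical.

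Aminoacyl-tRNA synthetases join each amino acid to its tRNA, and they fall into 2 structural classes, class I and class II, with unrelated catalytic folds. Amino acids reach them from transporters in the plasma membrane and from synthesis inside the cell, for example of serine, glycine, asparagine and proline. When uncharged tRNA accumulates or protein folding fails, phosphorylation of eIF2α lowers general translation and raises translation of the transcription factor ATF4, which binds C/EBP-ATF response elements at many genes of amino acid transport, amino acid synthesis and tRNA charging. The integrated stress response is the name of this pathway, and tumour cells can use its amino acid genes to sustain growth.

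The promoters of several of the genes that were higher in the knockout clones hold the core letters of that response element, and they are shown here because they are the sequence feature shared by part of the list. RefSeq promoter windows (mouse, GRCm38.p6), which run from 250 bases before to 50 bases after each RefSeq gene start, were matched by symbol for 29 of the 40 genes. The motif TGATGNAA was searched on both strands. Each stretch below is printed 5′ to 3′ on the strand of its gene, with the match in capitals.
Asns: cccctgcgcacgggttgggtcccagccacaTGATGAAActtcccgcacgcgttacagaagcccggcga
Gars: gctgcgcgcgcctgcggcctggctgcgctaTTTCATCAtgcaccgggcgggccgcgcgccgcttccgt
Tars: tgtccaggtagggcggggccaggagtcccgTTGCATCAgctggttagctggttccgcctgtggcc
Iars: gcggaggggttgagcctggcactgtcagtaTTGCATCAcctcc
Pycr1: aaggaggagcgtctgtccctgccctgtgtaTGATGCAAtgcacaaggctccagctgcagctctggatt
Slc1a4: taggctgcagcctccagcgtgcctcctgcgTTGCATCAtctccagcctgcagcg

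These stretches lie at chr6:7693195-7693262 on the minus strand for Asns, chr6:55037941-55038008 on the plus strand for Gars, chr15:11399639-11399703 on the minus strand for Tars, chr13:49682107-49682149 on the plus strand for Iars, chr11:120643814-120643881 on the minus strand for Pycr1 and chr11:20332694-20332747 on the minus strand for Slc1a4. The match began 23 bases before the RefSeq gene start in Asns, 30 in Gars, 15 in Tars, 103 in Pycr1 and 4 in Slc1a4, and just past the start in Iars. Yars, Aars and Got1 also held the motif, Aars with 2 matches. Their log2 fold changes in the mean contrast (0.51, 0.74 and 0.52) were smaller than those of the genes printed. The stretches shown therefore do not stand for all matches. In all, 9 of the 29 matched genes (31.0%) held TGATGNAA, against 4.51% of the 27025 genes with a window. All 9 were among the 23 matched genes called higher in the knockout cells in the mean contrast defined below. None of the 6 other matched genes held it. Since 23 of the 29 were called higher, most of any 9 would fall among them, so this split cannot link the motif to the rise. The list was chosen by function with earlier results known, while the genes with a window were taken whether tested or not. The shares of 31.0% and 4.51% are therefore a description, and their difference was not tested. Not every gene that rose had it: Mthfd2, Gpt2, Slc3a2 and Slc7a1, for example, held no match in their windows. The E-box CACGTG, a palindrome bound by MYC and by TFEB-type factors, was in 5 of the 29 (17.2%), namely Iars, Aars, Farsb, Tars and Cbs, against 8.09% of all genes. A match is a description of the letters and is no evidence of binding.

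Levels are CPM, gene counts scaled by the TMM-adjusted library size. Changes are log2 fold changes with standard errors (SE) from the quasi-likelihood test of edgeR, and p was adjusted by Benjamini-Hochberg over the 13755 tested genes. A gene is called when its adjusted p is under 0.05. The mean contrast sets the average of both clones against WT. Libraries held 10428970 to 22658499 gene reads. Mki67 itself was at 647 and 736 CPM in WT and at 39.9 to 103 CPM in the 4 clone libraries, and its transcript was still counted at this level in the clones. Of the epithelial markers, 4 of the 7 tested were called higher and none lower in the mean contrast (26.5% and 29.3% of all tested genes), 3 and none in clone 1, and 4 and 1 in clone 2. Markers of leukocytes and of endothelial cells were near 0 in all libraries (summed levels 0.0986 to 0.360 CPM over 12 genes, 7 of them at 0 throughout, and 0.394 to 0.617 CPM over 8 genes, 4 of them at 0). Of 8 fibroblast markers 1, Pdgfra, was tested, and the list summed to 39.5 and 39.6 CPM in WT and 14.6 to 14.7 CPM in the clones, a change whose part in the results was not tested. In the WT libraries 24.8% and 28.4% of gene reads fell on the 10 top genes, in the clone libraries 14.97% to 21.2%, and 43.2% and 48.6% of all reads were assigned to genes in WT against 50.6% to 53.1% in the clones. The WT libraries also differed more from each other (chi-square per degree of freedom 78.8, against 17.7 in clone 1 and 24.99 in clone 2). When mitochondrial genes and the 50 most abundant genes were left out of the scaling, the count of members called higher was again 31; the part of the other differences in the results was not tested. In bulk RNA, a change in the number of cells that express a gene and a change in RNA per cell cannot be told apart.

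The genes of tRNA charging and amino acid supply were mostly higher in the Ki-67 knockout clones. In the mean contrast 33 of the 40 were called, where 55.8% of all tested genes were: 31 rose, against 26.5% of all tested genes called higher, and 2 fell, Cth and Psph, against 29.3% called lower. The median log2 fold change was 0.72, beside -0.02 over all tested genes. The 40 genes summed to 9708 and 8880.2 CPM in WT, 14586 and 14982 CPM in clone 1, and 16956 and 16359 CPM in clone 2, so their summed level in every clone library was above both WT libraries. In 28 of the 40 genes all 4 clone libraries lay above both WT libraries, against 27.7% of all tested genes, in 2 (Qars and Cth) all 4 lay below, against 30.1%, and in 10 the libraries overlapped.

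Both clones showed the rise. In clone 1, 28 genes rose and 2 fell, with a median log2 fold change of 0.64, against 50.4% of all tested genes called, 24.5% higher and 26.0% lower. In clone 2, 29 rose and 1 fell, with a median of 0.77, against 53.1% called, 25.2% higher and 27.9% lower. Of the 40, 25 rose in each clone and 1, Cth, fell in each, beside 17.8% and 19.8% of all tested genes called higher or lower in each clone. A further 8 were called in 1 clone alone, of which 3 (Hars, Psph and Cbs) also differed between the clones by test, and 6 (Eprs, Qars, Rars, Dars, Phgdh and Psat1) in neither. With a required change of more than 1.5-fold, 18 genes rose in the mean contrast, against 8.56% of all tested genes. In clone 1, some calls were lost when 1 of its libraries was left out, with fold changes of about the same size: Got1 (0.43 without the second, adjusted p = 0.0578), Slc6a9 (0.43 without the first, adjusted p = 0.0598), Mars (0.38 and 0.35 without the first and the second, adjusted p = 0.0935 and 0.120) and Lars (0.37 and 0.33, adjusted p = 0.124 and 0.166). Lars was also lost without the second WT library (0.32, adjusted p = 0.0854). In clone 2 the call of Farsb was lost without its first library (0.39, adjusted p = 0.0787) and without the second WT library (0.31, adjusted p = 0.0509).

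**Figure D1:**
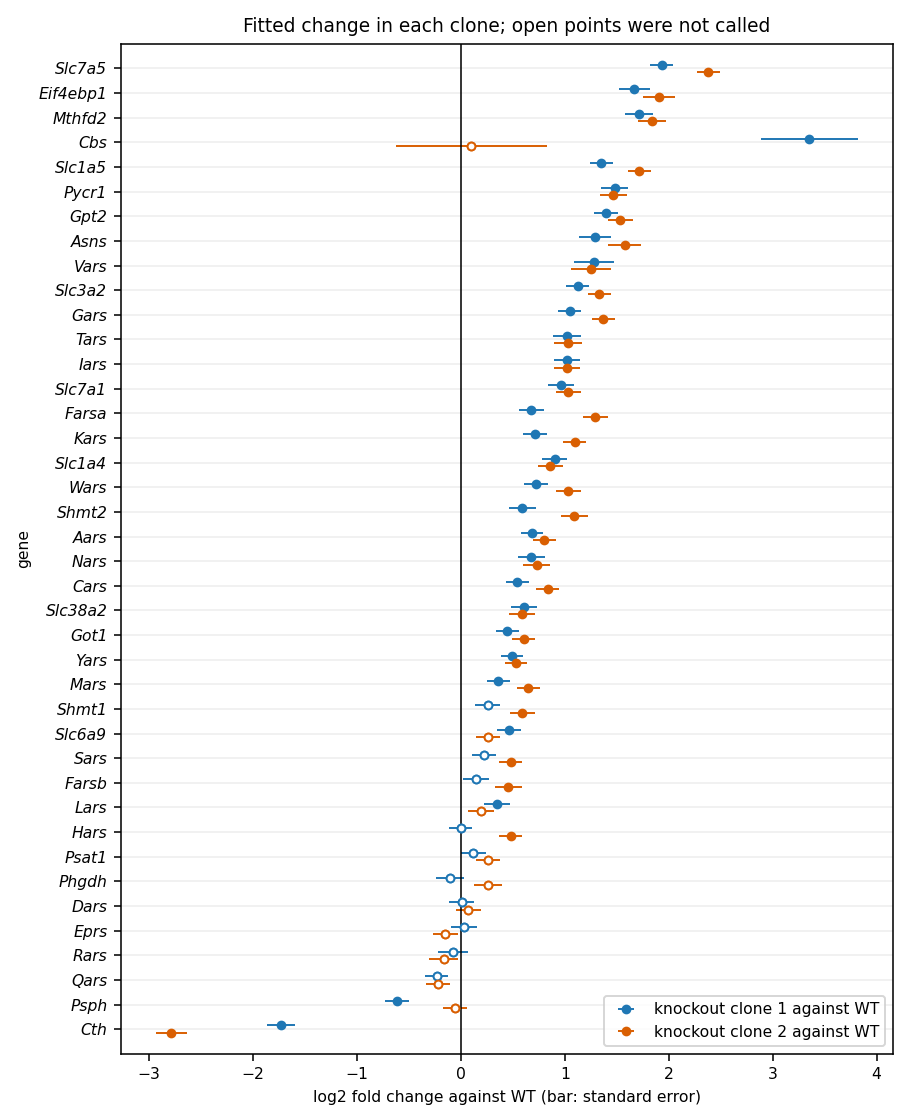
Log2 fold change of each of the 40 genes in clone 1 and in clone 2 against WT, with bars of 1 standard error; filled points were called at an adjusted p under 0.05 and open points were not. Most points of both clones lie to the right of 0, Cth lies far to the left in both, and Cbs is separated from WT in clone 1 but not in clone 2.

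Of the 20 synthetase genes, 15 rose in the mean contrast, none fell and 5 were not called, with a median log2 fold change of 0.60. Of all tested genes 26.5% were called higher and 29.3% lower in this contrast. Their summed level was 6072 and 5751 CPM in WT, 8670.1 and 8856 CPM in clone 1, and 9490 and 9616 CPM in clone 2. Of the class II genes 9 of 10 rose (median 0.72) and of the class I genes 6 of 10 (median 0.51). This difference between the lists was not tested. Eprs, whose protein charges 2 amino acids, was counted in class I only.

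Among class I genes, Vars, which charges valine, stood at 257 and 414 CPM in WT, 856 and 773 CPM in clone 1, and 829.9 and 767 CPM in clone 2. The WT libraries differed from each other, but each lay below every clone library, and the mean contrast was 1.27 (SE 0.172, adjusted p = 0.000136). Iars, which charges isoleucine, stood at 168.2 and 135 CPM in WT, 299.9 and 313 CPM in clone 1, and 319 and 295 CPM in clone 2. Its groups of WT and knockout libraries did not overlap (mean contrast 1.02, SE 0.113, adjusted p = 5.52e-06), and the difference between the clones had a 95% interval of -0.26 to 0.27. Wars, the tryptophanyl enzyme, was at 150.0 and 133 CPM in WT, 236 and 231 CPM in clone 1, and 312 and 267 CPM in clone 2, a change of 0.88 (SE 0.107, adjusted p = 1.31e-05). Cars, for cysteine, was at 185 and 166 CPM in WT, 254 and 257 CPM in clone 1, and 306 and 321 CPM in clone 2. It was separate from WT in all 4 clone libraries (0.69, SE 0.0980, adjusted p = 5.31e-05). Yars, for tyrosine, was at 185 and 190.1 CPM in WT and 262 to 275 CPM in the clones, and it rose by 0.51 (SE 0.0933, adjusted p = 0.000413). Mars, for methionine, rose by 0.51 as well, from 179 and 193 CPM to 237 to 304 CPM.

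The remaining 4 class I genes were not called in the mean contrast. Eprs, whose protein charges both glutamate and proline, was at 614 and 694 CPM in WT and 536 to 668 CPM in the clones. Its fitted change was -0.06 with a 95% interval of -0.29 to 0.17. Qars, for glutamine, was at 254 and 268 CPM in WT and 211 to 236 CPM in the clones, so that all clone libraries lay below WT, but the change of -0.23 (95% interval -0.43 to -0.02) missed the threshold in edgeR's test (adjusted p = 0.0585). Rars, for arginine, had a change of -0.12 (95% interval -0.39 to 0.14). Qars was called lower with upper-quartile scaling (-0.30, adjusted p = 0.0169), with a filter of 1 CPM in 2 libraries (-0.24, adjusted p = 0.0428) and without the first clone 2 library (-0.27, adjusted p = 0.0407), and Rars was called lower without the second WT library (-0.30, adjusted p = 0.0494). Lars, for leucine, had 0.27 in the mean contrast (adjusted p = 0.0515) and rose in clone 1 (0.34, adjusted p = 0.0355), while in clone 2 its libraries were at 352 and 451 CPM, around the 345 and 357 CPM of WT and up to the level of clone 1 (clone 2 against clone 1, adjusted p = 0.416). In the mean contrast Lars was called without the first clone 2 library (0.36, adjusted p = 0.0101), and also with DESeq2 (adjusted p = 0.0397), without a filter (0.0249), with the legacy fit (0.0463) and with unstranded counts (0.0477).

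Class II was led by Gars, the glycyl enzyme, which serves both the cytosol and mitochondria. It stood at 431 and 399 CPM in WT, 843 and 870.4 CPM in clone 1, and 1075 and 1068 CPM in clone 2. The 3 groups formed separate steps, and the mean contrast was 1.21 (SE 0.0991, adjusted p = 3.21e-07). Tars, for threonine, was at 376 and 306 CPM in WT, 656 and 725 CPM in clone 1, and 637 and 752 CPM in clone 2 (1.02, SE 0.119, adjusted p = 8.99e-06). The libraries of the clones overlapped each other there. Kars, for lysine, another enzyme shared by cytosol and mitochondria, was at 249 and 241 CPM in WT, 398 and 404 CPM in clone 1, and 558 and 487 CPM in clone 2 (0.90, SE 0.101, adjusted p = 6.09e-06). Aars, for alanine, was at 749.7 and 761 CPM in WT, 1224 and 1205 CPM in clone 1, and 1320.1 and 1317 CPM in clone 2 (0.74, SE 0.0950, adjusted p = 2e-05). Aars overlaps Exosc6 on the same strand over 1326 exonic bases, where reads of the 2 genes cannot be told apart. Ambiguous reads, 1.90% to 2.74% of reads per library, were not counted to genes, which can lower the level of Aars. Nars, for asparagine, rose by 0.70 (SE 0.117, adjusted p = 0.000195) and Sars, for serine, by 0.35 (SE 0.0998, adjusted p = 0.00903).

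Phenylalanyl-tRNA synthetase is built from 2 kinds of subunit, and their genes moved by different amounts. Farsa, the alpha subunit with the catalytic site, was at 93.3 and 98.3 CPM in WT, 155 and 152 CPM in clone 1, and 255 and 215 CPM in clone 2, and its groups did not overlap (mean contrast 0.98, SE 0.106, adjusted p = 4.22e-06). Farsb, the beta subunit, was at 109 and 88.5 CPM in WT, 104 and 115 CPM in clone 1, and 143 and 128 CPM in clone 2. Clone 1 overlapped WT and clone 2 lay above it, and the mean contrast was 0.30 (SE 0.112, adjusted p = 0.0353). That call was lost without the second WT library (0.16, adjusted p = 0.275), without either clone 1 library (adjusted p = 0.0572 and 0.116), without the first clone 2 library (adjusted p = 0.0986) and with upper-quartile scaling (0.23, adjusted p = 0.102). Per kb of exon, the ratio of Farsa to Farsb was 0.492 and 0.641 in the WT libraries, 0.857 and 0.764 in those of clone 1, and 1.03 and 0.966 in those of clone 2. Hars, for histidine, was at 98.1 and 103 CPM in WT, 98.0 and 103 CPM in clone 1, and 136 and 144 CPM in clone 2. Clone 1 and WT coincided, so the mean contrast of 0.24 (adjusted p = 0.0485) came from clone 2 (0.48, adjusted p = 0.00236). It was close to the threshold: with values of 0.21 to 0.25 it was not called without the first WT library (adjusted p = 0.114), either clone 1 library (adjusted p = 0.129 and 0.171) or the second clone 2 library (adjusted p = 0.0924), with the 1 CPM filter (0.0596), unstranded counts (0.0527) or the replicate block (0.0845). With upper-quartile scaling it was 0.17 (adjusted p = 0.153). Dars, for aspartate, was not called (0.04, 95% interval -0.19 to 0.27).

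**Figure D2:**
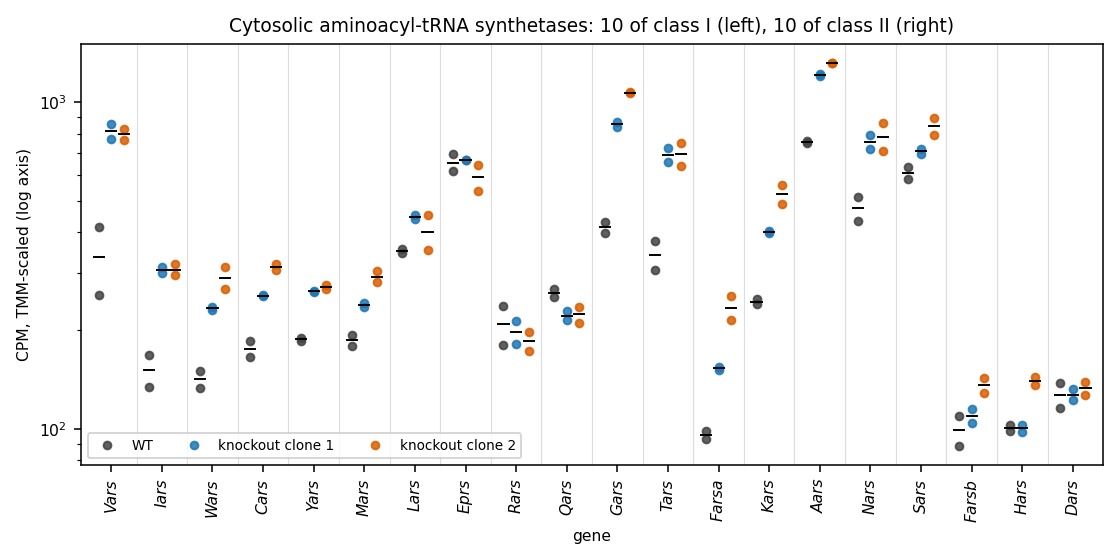
CPM of the 20 cytosolic synthetase genes in each library on a log axis, 2 points a group for WT, clone 1 and clone 2 and short black lines at the group means. Gars, Tars, Iars and Vars are separated between WT and both clones, while Eprs, Rars and Dars overlap.

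The synthetases were also grouped by whether they are commonly reported as targets of ATF4. That list was taken from general knowledge, with earlier results of these data known. Of the 13 so reported, 11 rose and none fell (median 0.70). The other 2, Eprs and Lars, were not called. Of the 7 not so reported, 4 rose (Farsa, Farsb, Hars and Kars) with a median of 0.24. Grouped instead by the multisynthetase complex, an assembly of synthetases and scaffold proteins in the cytosol, 3 of its 8 enzymes rose (Iars, Mars and Kars) with a median of 0.15. Of all tested genes 26.5% were called higher, and 3 of 8 is not far above that share. Neither grouping was tested against the other synthetases. The 3 scaffold genes of the complex differed: Eef1e1 rose by 1.06, to 41.3 to 53.8 CPM in the clones, Aimp2 rose by 0.49, and Aimp1 fell by 0.48.

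Enzymes of asparagine, serine, glycine and folate metabolism were split. Asns, which makes asparagine from aspartate and glutamine, was at 559.8 and 392 CPM in WT, 1134 and 1199 CPM in clone 1, and 1525 and 1311 CPM in clone 2. Its mean contrast was 1.43 (SE 0.141, adjusted p = 1.83e-06), with no overlap between WT and knockout libraries. Mthfd2, the mitochondrial folate dehydrogenase and cyclohydrolase, was at 111 and 84.8 CPM in WT, 308 and 332 CPM in clone 1, and 367 and 331 CPM in clone 2 (1.78, SE 0.126, adjusted p = 7.92e-08). Shmt2, which makes glycine from serine in mitochondria, was at 344 and 305 CPM in WT, 477 and 499.8 CPM in clone 1, and 776 and 607 CPM in clone 2 (0.84, SE 0.117, adjusted p = 4.42e-05). Clone 2 stood above clone 1, and its own libraries were further apart than those of clone 1. Shmt1, the cytosolic counterpart, was at 45.4 and 41.6 CPM in WT, 50.5 and 53.4 CPM in clone 1, and 68.2 and 62.8 CPM in clone 2 (0.42, SE 0.103, adjusted p = 0.00336). In clone 1 it was called without the first WT library (0.33, adjusted p = 0.0461).

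None of the 3 enzymes that make serine from a glycolytic intermediate was called higher. Phgdh, the first step, was at 96.8 and 129 CPM in WT, 109 and 101 CPM in clone 1, and 132 and 139 CPM in clone 2, and its change of 0.08 had a 95% interval of -0.18 to 0.33. Without the second WT library it was 0.31 (adjusted p = 0.0335), and 0.49 in clone 2 (adjusted p = 0.00388). Psat1, the second step, was at 798 and 708 CPM in WT and 778 to 962 CPM in the clones (0.19, 95% interval -0.04 to 0.41), and in clone 2 it was called without the first WT library (0.36, adjusted p = 0.0378). Psph, the last step, was at 213 and 192 CPM in WT, 129 and 135 CPM in clone 1, and 205 and 184 CPM in clone 2. It fell in clone 1 (-0.61, SE 0.114, adjusted p = 0.000591) and overlapped WT in clone 2 (-0.06, adjusted p = 0.699). Its mean contrast of -0.34 (adjusted p = 0.01000) was not called without the first WT library (-0.25, adjusted p = 0.0657) or the first clone 1 library (adjusted p = 0.0526), or without a filter (adjusted p = 0.0569).

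Of the 5 other enzymes, 3 rose in each clone, against 17.8% of all tested genes called higher in both. Pycr1, which completes proline synthesis in mitochondria, was at 13.1 and 13.9 CPM in WT, 39.2 and 36.4 CPM in clone 1, and 39.3 and 35.7 CPM in clone 2 (1.47, SE 0.119, adjusted p = 2.68e-07). Gpt2, the mitochondrial alanine transaminase, was at 122 and 101 CPM in WT, 292 and 294 CPM in clone 1, and 321 and 324 CPM in clone 2 (1.47, SE 0.109, adjusted p = 1.21e-07). In both genes all clone libraries were well above WT, and the 95% interval of clone 2 against clone 1 was -0.28 to 0.25 for Pycr1 and -0.11 to 0.39 for Gpt2. Got1, the cytosolic aspartate transaminase, was at 80.2 and 80.1 CPM in WT, 107 and 111 CPM in clone 1, and 127 and 117 CPM in clone 2 (0.52, SE 0.0971, adjusted p = 0.000459).

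The 2 enzymes that make cysteine from homocysteine differed from each other. Cth, cystathionine gamma-lyase, which releases cysteine, was at 67.5 and 56.0 CPM in WT, 17.5 and 19.6 CPM in clone 1, and 8.54 and 9.28 CPM in clone 2. The groups formed 3 descending levels with no overlap, and the change was -1.73 (SE 0.138, adjusted p = 4.21e-07) in clone 1, -2.79 (SE 0.146, adjusted p = 9.18e-09) in clone 2 and -2.26 (adjusted p = 3.58e-09) in the mean contrast. Cbs, which makes cystathionine from homocysteine and serine, was scarce: 0.296 and 0.118 CPM in WT, 1.98 and 1.93 CPM in clone 1, and 0.236 and 0.173 CPM in clone 2. These levels rest on 3 and 2 reads for WT, 45 and 43 reads for clone 1, and 4 and 4 reads for clone 2. It rose in clone 1 (3.35, SE 0.470, adjusted p = 5.88e-05), and in clone 2 no change was detectable at this depth (0.10, 95% interval -1.47 to 1.67). The mean contrast of 1.73 (adjusted p = 0.0197) therefore describes clone 1, and it was 1.08 without the second WT library (adjusted p = 0.240) and 1.63 without the first clone 2 library (adjusted p = 0.0657), and 1.72 with DESeq2 (adjusted p = 0.0857).

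All 7 transporters rose in the mean contrast (median 1.00), against 26.5% of all tested genes called higher. In all 7 every clone library lay above both WT libraries, against 27.7% of all tested genes. Their summed level was 1031 and 914 CPM in WT, 2060.0 and 2055 CPM in clone 1, and 2396 and 2325 CPM in clone 2. Slc7a5 (LAT1), the exchanger of large neutral amino acids such as leucine, lies at chr8:121881150-121907694 and was at 125 and 128 CPM in WT, 488 and 475 CPM in clone 1, and 669 and 645 CPM in clone 2. It was the member with the largest rise, 2.16 in the mean contrast (SE 0.103, adjusted p = 2.07e-09). Slc3a2, the heavy chain that carries LAT1 to the cell surface, was at 240.0 and 219.7 CPM in WT, 494 and 508 CPM in clone 1, and 604 and 554 CPM in clone 2 (1.23, SE 0.102, adjusted p = 3.46e-07). Slc7a5 therefore rose more than its partner in these values: per kb of exon, the ratio of Slc7a5 to Slc3a2 was 0.494 and 0.554 in the WT libraries, 0.940 and 0.891 in those of clone 1, and 1.05 and 1.11 in those of clone 2. This ratio was not tested.

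**Figure D3:**
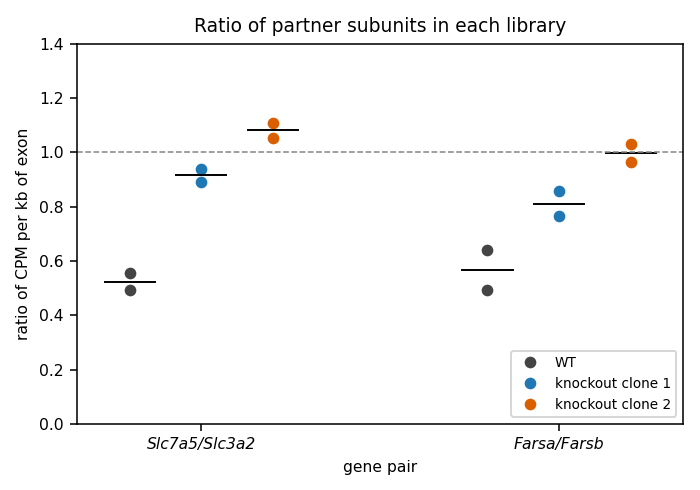
Ratio of CPM per kb of exon for the partner genes Slc7a5 and Slc3a2, and Farsa and Farsb, in each of the 6 libraries (2 points a group). Lines are group means and the dashed line marks equal CPM per kb of all annotated exons. Both ratios are lowest in the WT libraries and highest in those of clone 2.

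Slc1a5 (ASCT2), a carrier of glutamine and other neutral amino acids, was at 72.1 and 75.3 CPM in WT, 189 and 187 CPM in clone 1, and 253 and 232 CPM in clone 2 (1.53, SE 0.102, adjusted p = 4.05e-08). The 3 groups were again separate steps. Slc7a1 (CAT1), the arginine and lysine carrier, was at 134 and 110.3 CPM in WT, 231 and 245 CPM in clone 1, and 238 and 262 CPM in clone 2 (1.00, SE 0.111, adjusted p = 5.67e-06). Slc1a4 (ASCT1), for alanine, serine and cysteine, was at 46.4 and 42.4 CPM in WT, 85.1 and 80.7 CPM in clone 1, and 85.3 and 75.7 CPM in clone 2 (0.88, SE 0.106, adjusted p = 1.21e-05). In these 2 genes the clones overlapped each other. Slc38a2 (SNAT2), the sodium-coupled carrier of small neutral amino acids, rose by 0.60 (SE 0.109, adjusted p = 0.000411), from 293 and 368 CPM in WT to 491 to 509 CPM in the clones. Slc6a9 (GLYT1), the glycine carrier, rose by 0.36 (SE 0.0985, adjusted p = 0.00685) and was called in clone 1 (0.46) but not in clone 2 (0.26, adjusted p = 0.0650), with no call between the clones (adjusted p = 0.209).

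Eif4ebp1 encodes 4E-BP1, which binds the cap-binding protein eIF4E and holds back cap-dependent translation unless mTORC1 phosphorylates it. It was at 155 and 111 CPM in WT, 411 and 432 CPM in clone 1, and 539 and 454 CPM in clone 2. No clone library came near WT, and the mean contrast was 1.79 (SE 0.141, adjusted p = 2.18e-07). RNA levels do not show how much of the protein is phosphorylated.

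**Figure D4:**
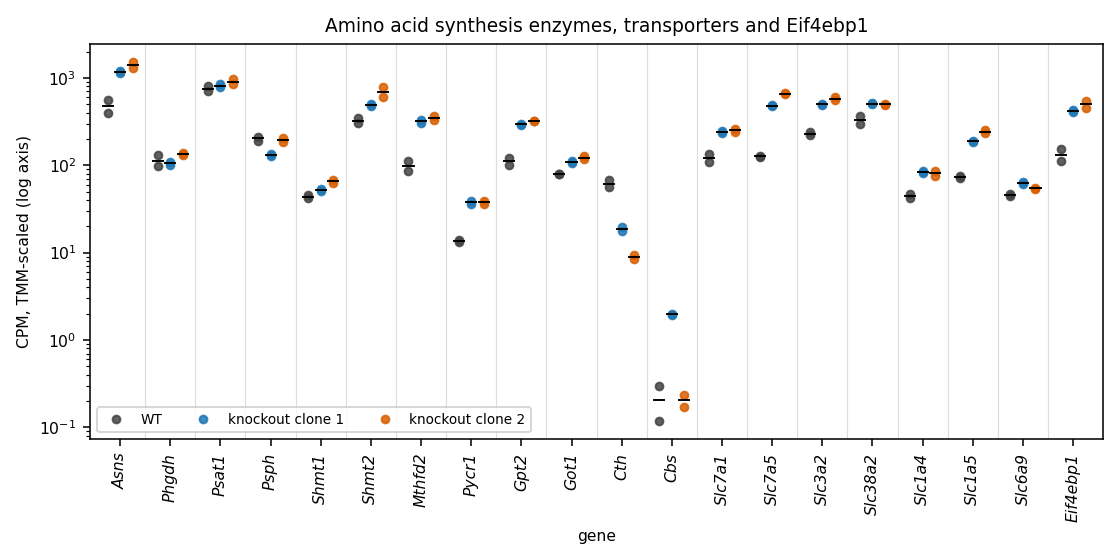
CPM of the 12 enzyme genes, 7 transporter genes and Eif4ebp1 in each library on a log axis, 2 points a group for WT, clone 1 and clone 2 and short black lines at the group means. All transporters, Asns, Mthfd2, Pycr1, Gpt2 and Eif4ebp1 lie higher in the clones, Cth lies lower in 3 separate levels, and Cbs is under 2 CPM in every library.

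Levels of different genes were compared per kb of exon. In WT, Psat1 (177 CPM per kb) and Asns (174 CPM per kb) stood highest and close together, followed by Gars (133 CPM per kb). In the clones Asns stood first, at 427 CPM per kb in clone 1 and 519 CPM per kb in clone 2, and Gars next at 275 and 344 CPM per kb. Slc7a5 moved from rank 24 of 40 in WT to rank 11 in clone 1 and rank 7 in clone 2, and Eif4ebp1 from rank 11 to 4 and 3. Cbs was lowest in all 3 groups, and Cth fell from rank 31 to 39.

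The clones also differed from each other. In clone 2 against clone 1, 10 of the 40 genes were called, a share near the 22.0% of all tested genes: 8 were higher, against 11.3% of all tested genes, and 2 lower, against 10.7%. Both clone 2 libraries lay above both clone 1 libraries in 22 genes, against 34.0% of all tested genes, and below in 4, against 34.2%. The genes higher in clone 2 were Farsa (0.62, adjusted p = 0.00304), Psph (0.56, adjusted p = 0.00476), Shmt2 (0.50, adjusted p = 0.0165), Hars (0.48, adjusted p = 0.00817), Slc7a5 (0.45, adjusted p = 0.0101), Kars (0.38, adjusted p = 0.0276), Slc1a5 (0.37, adjusted p = 0.0279) and Gars (0.32, adjusted p = 0.0474). Lower in clone 2 were Cbs (-3.25, SE 0.410, adjusted p = 0.000191) and Cth (-1.06, SE 0.143, adjusted p = 0.000324). Of these 10 calls, those for Cbs and Cth held in every alternative run. The count of genes higher in clone 2 fell when a clone library was left out and rose when a WT library was left out. The share of all tested genes called higher moved the same way. With only the 2 clones fitted the count was 14, against 17.4% of all tested genes. With the libraries' replicate numbers as a block it was 5, against 9.29%.

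Several of the genes lie on chromosomes whose genes moved as a whole. Of the 40 genes 6 (Aars, Farsa, Kars, Gpt2, Slc7a5 and Eif4ebp1) are on chromosome 8, where the median log2 fold change of all tested genes was 0.33 in the mean contrast. With the chromosome's median removed, all 6 were still called, from 0.40 for Aars (adjusted p = 0.00336) to 1.81 for Slc7a5 (adjusted p = 1.17e-08). Vars, on chromosome 17 (median 0.34), kept 0.92, and Mars and Shmt2, on chromosome 10 (median -0.40), had 0.90 and 1.24. Psph, Hars and Cbs were no longer called in the mean contrast with chromosome medians removed.

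Genes of the same pathways that are not in the list of 40 were examined as separate lists, whose counts in the mean contrast stand beside 26.5% of all tested genes called higher and 29.3% called lower. Atf4 itself rose from 268 and 205 CPM in WT to 832 and 830.5 CPM in clone 1 and 997 and 982 CPM in clone 2 (1.94, SE 0.124, adjusted p = 2.84e-08). Its targets Trib3, a pseudokinase (2.05, adjusted p = 2.38e-08), Chac1, which degrades glutathione (2.18, adjusted p = 7.84e-06), and Ddit3, the transcription factor CHOP (1.01, adjusted p = 5.24e-05), rose too. In all, 12 of the 20 genes of the integrated stress response rose and 5 fell (median 0.48). Stc2, a secreted glycoprotein that is also reported to respond to ATF4, went the other way, with 317 reads over the WT libraries and 1 read in each clone. Scaled to library size, WT was 498 times the clones, with an exact 95% interval of 137 to 4130.1 that covers counting error only.

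**Figure D5:**
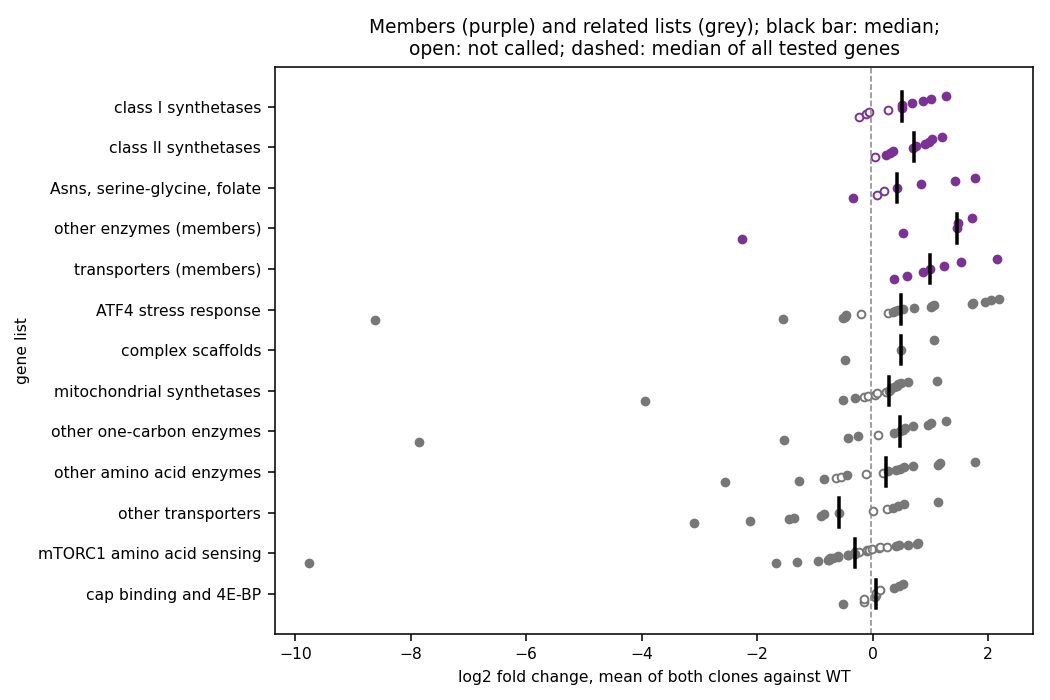
Log2 fold change in the mean contrast of each tested gene in the groups of the 40 genes (purple) and in related lists (grey); filled points were called, open points were not, black bars are medians and the dashed line is the median of all tested genes. The transporters in the list of 40 all lie to the right of 0 while the other transporters have a median of -0.59, and the points beyond -5 are fitted values of genes with few or no reads in the clones, which are no bound.

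The related lists did not all rise. Of 17 mitochondrial synthetases, 7 rose and 3 fell (median 0.28). The 3 include Lars2 (-3.94, adjusted p = 0.0254), where 14.1% to 97.6% of stranded reads per library were antisense. Its counts cannot be read as the level of its mRNA alone. Nars2, for asparagine, rose by 1.12 (adjusted p = 1.87e-05) and Aars2, for alanine, by 0.62 (adjusted p = 0.00547). Of 13 tested genes of other serine, glycine and one-carbon enzymes, 8 rose and 4 fell (median 0.47). Gcsh of the glycine cleavage system rose by 1.01 and Gcat, which breaks down threonine products to glycine, by 1.27. Aldh1l2, the mitochondrial formyltetrahydrofolate dehydrogenase, had 247 reads over the WT libraries and 3 over the 4 clone libraries, a scaled ratio of 259 (exact 95% interval 87.5 to 1263). Of 16 other enzymes of amino acid metabolism, 8 rose and 4 fell (median 0.22). Odc1, which starts polyamine synthesis, rose by 1.78 and Aldh18a1, which starts proline synthesis from glutamate, by 1.17, and Glul, glutamine synthetase, fell by 1.27.

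Of 24 other amino acid transporters, 13 were tested, of which 4 rose and 7 fell (median -0.59). Slc7a6, a cationic and neutral amino acid exchanger, rose by 1.13 (adjusted p = 7.33e-07). Slc16a10, a carrier of aromatic amino acids, fell by 2.13 (adjusted p = 3.08e-07), from 9.27 and 8.21 CPM in WT to 1.73 to 2.20 CPM in the clones. Slc36a4 was at 5.33 and 4.49 CPM in WT, 0.0441 and 0.135 CPM in clone 1, and 2.59 and 4.01 CPM in clone 2, and the clones differed (adjusted p = 1.17e-05). The difference between the 2 sets of transporters was not tested.

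Of 29 tested genes by which mTORC1 senses amino acids, 5 rose and 13 fell (median -0.30). Flcn, the folliculin gene, fell by 1.31 (adjusted p = 1.33e-07), from 70.5 and 74.3 CPM in WT to 27.9 to 30.5 CPM in the clones, and Fnip1, for its binding partner, by 1.68 (adjusted p = 5.64e-08). Rragd, one of the Rag GTPases, had 326 reads over the WT libraries and 1 over the clones, a scaled ratio of 1024 (exact 95% interval 183 to 40580.2). Of 10 tested cap-binding and 4E-BP genes besides Eif4ebp1, 3 rose, a share near the 26.5% of all tested genes, and 1 fell (median 0.06). Eif4ebp2, for the related protein 4E-BP2, fell by 0.51 (adjusted p = 0.00127), opposite to Eif4ebp1, and Eif4g3 and Eif4g2 rose by 0.53 and 0.45.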

How the data were processed

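RNA-seq of 6 libraries was used. The deposited values are read counts per gene, not normalized, in 1 table a library. Per the submitters' processing notes, the authors checked reads with FastQC and aligned them with STAR 2.6.0c to GRCm38; the annotation release is not given in the sources used here. The reverse-strand counts (column 4) were used, since they held 92.3% to 95.7% of stranded gene reads. Table entries without a gene (unmapped reads and the like) were dropped; 24.7% to 29.3% of reads mapped to several places and were not counted to genes, which can lower genes with near-identical copies. Symbols came from GENCODE M21 (54079 IDs matched).

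R 4.3.3, edgeR 4.0.16 and limma 3.58.1 were used. After filterByExpr and TMM scaling, 13755 of 26172 genes with a read were fitted with a robust quasi-likelihood model with 1 term per group over all 6 libraries (3 residual degrees of freedom, common biological coefficient of variation 10.3%), with Benjamini-Hochberg adjustment. Ratios of groups with 1 to 3 reads have exact 95% intervals. Counts were also simulated with 200 genes changed equally in both clones. In the mean contrast of that simulation (13409 genes), recovery was 48.5% at 1.5-fold, 86.4% at 2-fold and 100% at 4-fold, with 15 false among 166 calls. In the data a far larger share, 55.8% of tested genes, was called in this contrast. The adjusted p depends on that share, so these rates do not carry over to the calls reported here.

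The members and lists were chosen with earlier results of these data known. All 40 members are named; library values are given for up to 5 with the largest change in each role group, those called between the clones, Eif4ebp1 and some others, and from each related list the 3 with the smallest adjusted p are named, with Atf4, Ddit3, Trib3 and Chac1. The result of 1 gene named by this rule is not given. Alternatives were DESeq2 1.42.0, upper-quartile scaling, scaling without mitochondrial and the 50 most abundant genes, other filters, limma-voom, the legacy fit, a 1.5-fold minimum, unstranded counts, only the groups compared, chromosome medians removed, a replicate block, and leaving out each library in turn.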

Additional observations from a re-analysis of the deposited data

Results flagged for a closer look

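By the test of clone 2 against clone 1, the levels of 10 of the 40 genes differed between the 2 clones, a share near the 22.0% of all tested genes called in that comparison. WT cancels from the fold changes, but its libraries enter the shared estimate of spread and so the adjusted p. Whether such a difference belongs to the knockout or to the clone cannot be told apart. The log2 differences were -3.25 for Cbs (adjusted p = 0.000191), -1.06 for Cth (adjusted p = 0.000324), 0.62 for Farsa (adjusted p = 0.00304), 0.56 for Psph (adjusted p = 0.00476) and 0.50 for Shmt2 (adjusted p = 0.0165). They were 0.48 for Hars (adjusted p = 0.00817), 0.45 for Slc7a5 (adjusted p = 0.0101), 0.38 for Kars (adjusted p = 0.0276), 0.37 for Slc1a5 (adjusted p = 0.0279) and 0.32 for Gars (adjusted p = 0.0474). Psph fell in clone 1, with clone 2 at the level of WT, and Hars rose in clone 2, with clone 1 at the level of WT. Groups of 2 libraries are too small for a test of single outlying libraries.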

How the results depend on the processing

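No fold change of the 40 genes that was called turned its direction in any alternative. Of 33 calls in the mean contrast, 28 were kept in all alternatives except the 1.5-fold minimum, and 19 also in that one. The exceptions were Cbs, Farsb, Hars, Psph and Sars (0.29 without the second WT library, adjusted p = 0.0518). A minimum change of 1.5-fold lowered the genes called higher from 31 to 18 in the mean contrast and from 28 to 15 in clone 1, those called lower in each from 2 to 1, and those higher between the clones from 8 to 0 (1.32% of all tested genes). In the mean contrast 1 gene was called lower without a filter and with chromosome medians removed, and 1 to 3 when single libraries were left out. In clone 2, 2 were called lower with upper-quartile scaling, and 1 to 2 when single libraries were left out. Between the clones, 14 were called higher when only the groups compared were fitted, against 17.4% of all tested genes. That count and the share of all tested genes also moved together when single libraries were left out (the spread of a group with 1 library left is then taken from the others). Same-numbered libraries did not deviate together (correlations across genes of -0.156, 0.082 and 0.0047), so the numbers were not taken to pair them. With the replicate block, 30 genes were called higher in the mean contrast, 28 in clone 1, 29 in clone 2 and 5 between the clones. The shares of all tested genes were 25.5%, 23.2%, 24.1% and 9.29%. With 2 libraries a group, depth limits Cbs, the 1 member under 1 CPM on average.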

Other observations

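Lars2, the mitochondrial leucyl-tRNA synthetase, was singled out after its values were seen. It was at 845 and 3987 CPM in WT, 1506 and 801 CPM in clone 1, and 21.7 and 21.1 CPM in clone 2. The libraries of WT and of clone 1 differed within their groups and overlapped each other, and both clone 2 libraries lay far below. Its fitted change was -6.82 in clone 2 (SE 1.18, adjusted p = 0.0188). For clone 1 it was -1.07 (adjusted p = 0.417). The difference between the clones was not called (adjusted p = 0.0531). Of the stranded reads counted at Lars2, 14.1% to 97.6% per library were on the antisense strand, so these counts cannot be read as the level of its mRNA alone.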
